A study of Arabidopsis thaliana and Zea mays with 12 samples.

Results

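The 8 conventional actin genes of Arabidopsis thaliana were followed in leaf mRNA-seq. They were picked by gene identifier as the 3 vegetative members ACT2 (AT3G18780), ACT7 (AT5G09810) and ACT8 (AT1G49240) and the 5 reproductive members ACT1 (AT2G37620), ACT3 (AT3G53750), ACT4 (AT5G59370), ACT11 (AT3G12110) and ACT12 (AT3G46520). All 8 are among the 27411 genes of the expression table. The series asks where N4-acetyldeoxycytosine (4acC), an acetylated DNA base, lies in the plant genome, and its mRNA-seq gives the expression level of each gene. RNA came from untreated 3-week-old wild-type (WT) Col-0 plants, the standard laboratory accession, with 2 biological replicates. The labels give the tissue as leaves, while the study's methods name no organ, and leaf is used below as the labelled tissue. The other 10 samples, which are 4acC immunoprecipitations and their input, were not analysed here. Only 1 condition has values, so the results are levels with the spread of 2 libraries and carry no test.

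Actin is the protein that assembles into filaments under the plant cell membrane and through the cytoplasm. The filaments guide vesicle and organelle transport, cell expansion and tip growth, as in root hairs and pollen tubes. In Arabidopsis the gene family is divided by where its members are known to be used: the vegetative genes in leaves, stems and roots, and the reproductive genes mainly in pollen, ovules and young organs. Within the vegetative class, ACT2 and ACT8 are known for root hair growth and ACT7 for rapidly growing and hormone-responsive tissue. Within the reproductive class, ACT1, ACT3, ACT4 and ACT12 are known for pollen, and ACT11 for pollen, ovules and embryos.

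The members encode nearly the same protein from clearly different DNA, which decides whether reads of 1 gene can be told from those of another. All 8 genes lie on the plus strand of the TAIR10.1 assembly, and each has a coding sequence of 1134 bases for 377 residues. The coding sequence is split over 4 exons in 7 of the genes and over 3 in ACT2. Over any 90 coding bases, each of the 28 pairs of members differed at 3 bases or more.

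Over the whole coding sequence, identity of the 28 pairs ran from 78.3% to 91.0% in bases and from 91.2% to 100% in residues. ACT1 and ACT3 encode the same protein although 108 of their coding bases differ. ACT2 and ACT8 differ at 102 bases and 1 residue, and ACT4 and ACT12 at 137 bases and 1 residue. The protein of ACT7 differed at 16 to 19 residues from those of the reproductive class, and at 28 and 27 from those of ACT2 and ACT8 in its own class. No window of 150 bases, the length of 1 read, was found in the coding sequence of a member and in another gene, nor was any window of 75 bases.

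**Figure D1:**
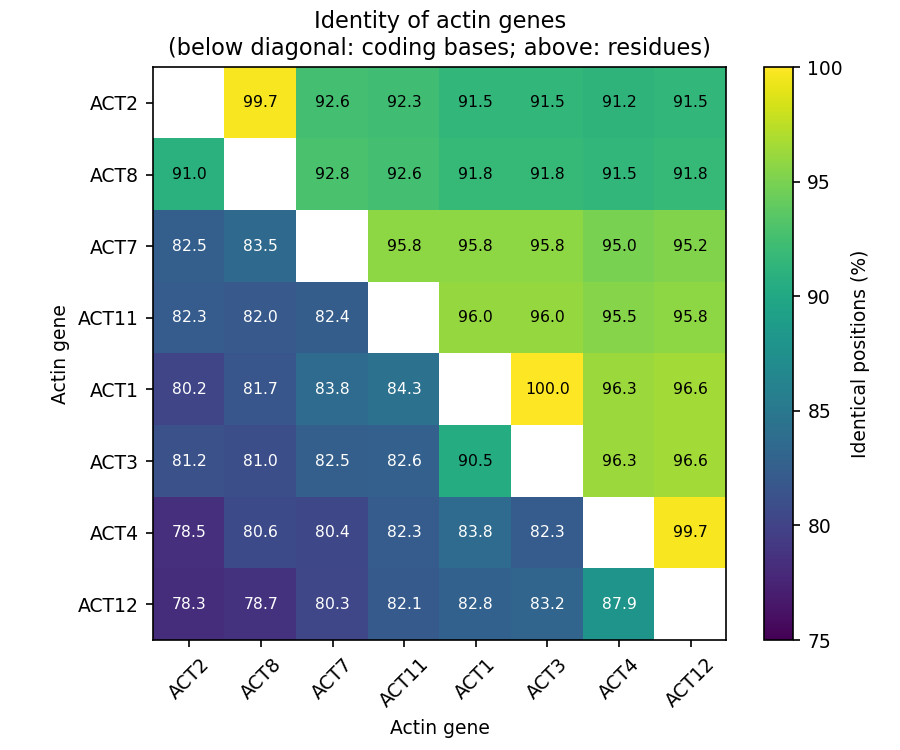
Percent of identical positions between the 8 actin genes, with coding bases below the diagonal and encoded residues above it, both genes on the axes and colour running from 75 to 100%. The pairs ACT2 with ACT8, ACT1 with ACT3 and ACT4 with ACT12 stand out with residues 99.7% to 100% identical, and in residues, though not in coding bases, ACT7 is nearer to all reproductive members than to ACT2 and ACT8.

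Reads can be shared with neighbours on the opposite strand at 2 members. ACT1 overlaps AS1 (AT2G37630), a transcription factor gene of leaf development, by 330 bases, and 10.6% of the 150-base windows of its longest transcript lie in that gene too. AS1 was at 3.53 and 3.87 FPKM in replicates 1 and 2. ACT12 overlaps the downy mildew resistance gene RPP13 (AT3G46530) by 1167 bases. Of the 150-base windows of its longest transcript, 37.5% are shared, and RPP13 was at 0.896 and 1.17 FPKM. The smallest length that fits the ACT12 values and is no shorter than its coding sequence was 1453 bases. Its shortest annotated transcript has 1707, so the share in the gene model that was counted is not known. The smallest length that fits was also below the shortest annotated transcript in ACT2 (1842 against 1888), ACT7 (1360 against 1812) and ACT8 (1707 against 1805). The same held for ACT3 (1557 against 1700) and ACT11 (1434 against 1788), but not for ACT1 and ACT4. The lengths used for these members are therefore uncertain too. No source used here says whether reads were assigned by strand. Possible shared reads thus make the values of ACT1 and ACT12 less certain than those of the other members.

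All 3 vegetative actins were well expressed in leaves, with a median of 53.2 FPKM. FPKM is the fragment number of a gene scaled for exon length and library size, so levels of different genes can be compared per length. Whether short and long genes were recovered evenly was not tested. This limit holds for all folds between genes and all rankings of genes by level below. ACT7 (chr5:3052062-3054691) was the highest member at 62.4 FPKM in replicate 1 and 55.0 in replicate 2, a mean of 58.7 ± 5.23 (SD, n = 2). ACT2 (chr3:6474710-6477204), whose mRNA is often taken as a constant reference in plant expression studies, had 52.4 and 54.1 FPKM (mean 53.2 ± 1.25). The order of these genes is not firm: their means lie 5.46 FPKM apart, 1.04 times the larger SD. The level of ACT7 over that of ACT2 was 1.19-fold in replicate 1 and 1.02-fold in replicate 2.

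ACT8 (chr1:18215800-18218339) had 26.7 and 26.8 FPKM in replicates 1 and 2 (mean 26.7 ± 0.0999). ACT2 stood 1.96-fold and 2.02-fold above ACT8, although their proteins differ at 1 residue. The ranges of these genes did not overlap, and ACT8 ranked 3066 of the 27411 genes, against 1819 for ACT2 and 1669 for ACT7.

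The reproductive actins fell into a group of 3 that was readily detected and a pair at the limit of detection. ACT3 (chr3:19915257-19917775) had 9.75 and 9.33 FPKM (mean 9.54 ± 0.298). ACT1 (chr2:15778941-15781561) had 7.55 and 6.68 FPKM (mean 7.11 ± 0.614). ACT3 was thus 1.29-fold and 1.40-fold above ACT1, with which it shares its protein sequence, and the libraries of these genes did not overlap. ACT11 (chr3:3857780-3860089) had 5.60 and 5.11 FPKM (mean 5.35 ± 0.346). ACT1 stood above ACT11 in both replicates, by 1.35-fold and 1.31-fold. All 3 were below the lowest vegetative gene, with ACT8 at 2.73 and 2.87 times the level of ACT3.

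ACT12 (chr3:17128211-17131466) had 0.00739 and 0.00652 FPKM, which is 1 read in each library. ACT4 (chr5:23949661-23951837) was listed at 0 in replicate 1 and had 0.0108 FPKM, or 2 reads, in replicate 2. A count of 0 for ACT4 in replicate 1 allows a level of up to 0.0184 FPKM, the value of 3 reads, as a one-sided limit. The order of ACT12 and ACT4 cannot be told, since 1 read has an exact Poisson 95% interval of 0.0253 to 5.57 reads and 2 reads of 0.242 to 7.22, both two-sided. These intervals and the limit cover counting error only. The other 6 members rest on at least 747 reads in replicate 1 and 773 in replicate 2 (ACT11) and up to 8978 and 10524 (ACT2), so counting alone adds an SD of 3.66% or less of the value. A low level in a bulk leaf sample does not separate fewer cells that use a gene from less RNA per cell.

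**Figure D2:**
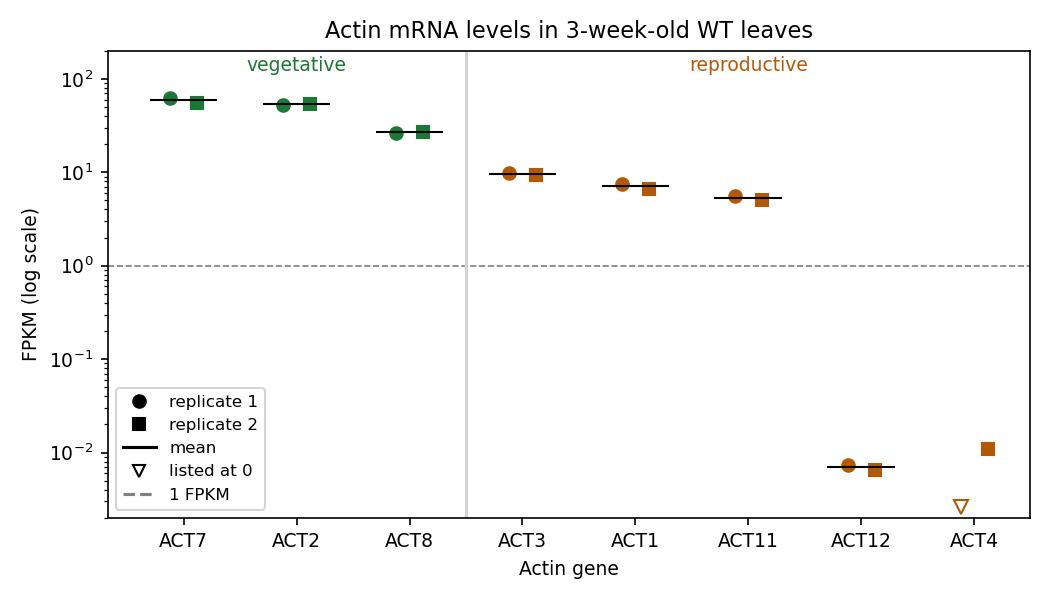
FPKM (log axis) of each actin gene in replicate 1 (circles) and replicate 2 (squares) of WT leaves, with the mean of both as a line, vegetative genes in green on the left and reproductive genes in orange on the right. The 3 vegetative genes lie between 26.7 and 62.4 FPKM and ACT3, ACT1 and ACT11 between 5.11 and 9.75, while ACT12 and ACT4 stay under 0.02, ACT4 with an open triangle where it is listed at 0 and no mean line.

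Summed over each class, the vegetative actins had 141 FPKM in replicate 1 and 136 in replicate 2 (mean 139 ± 3.88, n = 2). The reproductive actins had 22.9 and 21.1 FPKM (mean 22.0 ± 1.25). The vegetative sum was 6.18-fold the reproductive sum in replicate 1 and 6.43-fold in replicate 2. The vegetative class therefore made up 86.1% and 86.5% of all actin FPKM. Its largest part came from ACT7, with 36.5% ± 2.09 of the actin sum, and from ACT2, with 33.2% ± 1.84. ACT8 gave 16.6% ± 0.594. Of the reproductive sum, ACT1, ACT3 and ACT11 gave 99.9%.

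**Figure D3:**
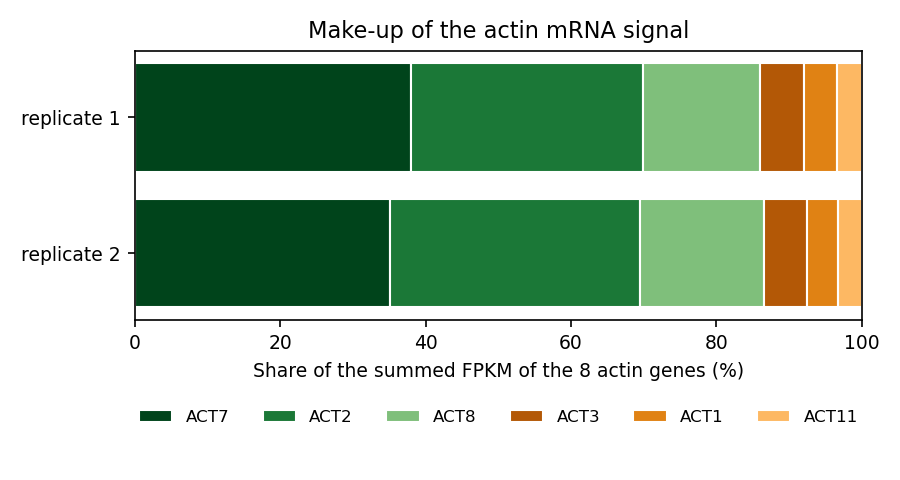
Share of each gene in the summed FPKM of the 8 actin genes (horizontal axis, %) in each WT leaf replicate, with vegetative genes in green and reproductive genes in orange. The green part ends at 86.1% in replicate 1 and 86.5% in replicate 2, and ACT4 and ACT12 are too small to be drawn.

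Of the 8 actins, 6 (75%) were above 1 FPKM, and of all 27411 genes 13074 (47.7%) were. Their median was 8.33 FPKM, against 0.823 over all genes. All actin mRNAs together made up 0.0165% of the summed FPKM of replicate 1 and 0.0161% of that of replicate 2.

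Between the libraries, 0 of the 8 actins were at least 1.5-fold apart on the scale of FPKM + 1, where 0.383% of all genes were. Genes as low as ACT4 and ACT12 could not reach 1.5-fold on this scale, and such genes are counted in both numbers. The ratio of replicate 2 to replicate 1, as log2 of FPKM + 1, ran from -0.18 for ACT7 to 0.05 for ACT2. Of the 6 members above 1 FPKM, 4 were lower in replicate 2 and 2 were higher. Of all genes above 1 FPKM, 68.3% were lower in replicate 2. When the ratios were centred on the median of all genes above 1 FPKM (-0.07), ACT3 changed sides and 3 were lower and 3 higher. After centring, ACT2 was at 0.12 and ACT7 at -0.11. Over all genes above 1 FPKM, the SD of the ratio was 0.17.

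**Figure D4:**
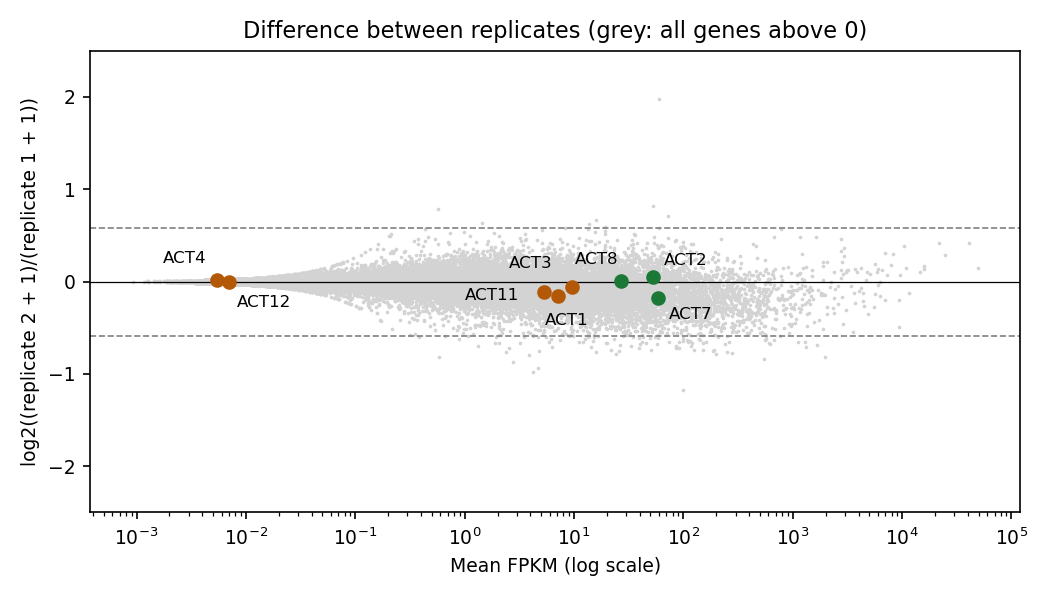
Ratio of replicate 2 to replicate 1 as log2 of FPKM + 1 (vertical axis) against mean FPKM (log axis) for the 8 actin genes (green, vegetative, and orange, reproductive) and all other genes above 0 (grey). All actins lie within the dashed lines at 1.5-fold, with ACT7 lowest at -0.18 and ACT2 highest at 0.05, and the pseudocount of 1 draws ACT4 and ACT12 to 0.

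Markers of leaf, pollen and floral organs were read, because the reproductive actins are known from flowers. No root, ovule or embryo markers were read, so these lists cannot tell leaves from whole green plants. All 5 leaf markers, such as the chlorophyll-binding protein gene CAB1 and the small Rubisco subunit gene RBCS1A, were high, at 383 to 40786 FPKM, with the Rubisco activase gene RCA lowest. Of 17 pollen markers, 0 were above 1 FPKM and 10 were listed at 0 in both replicates, among them DUO1, a regulator of sperm cell formation, and the pectin methylesterase gene VGD1. The highest was the pollen tube receptor kinase gene ANX1, at 0.203 and 0.227 FPKM, followed by the sperm cell gene GEX2 at 0.0282 and 0.0466. Summed over the list, the pollen markers had 0.280 and 0.348 FPKM in replicates 1 and 2. All 8 floral organ markers were below 1 FPKM, and their sum was 2.01 and 1.89. The highest of these was AGAMOUS (AG), the carpel and stamen identity gene, at 0.589 and 0.455 FPKM, followed by the meristem identity gene APETALA1 (AP1) at 0.402 and 0.548. The lowest was the petal and stamen identity gene APETALA3 (AP3), at 0.0207 and 0.0639. The part of pollen, flower or meristem tissue in the levels of ACT1, ACT3 and ACT11 was not tested.

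Of 3 genes outside the conventional family that encode actin-like sequences, 0 were above 1 FPKM. ACT9 and AT2G42100 were listed at 0 in both replicates. AT2G42170 had 0.743 and 0.601 FPKM.

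Actin function rests on partner proteins. In 9 lists, 90 genes for actin-binding proteins, regulators of filament growth and actin-related proteins were read. Of these, 34 (37.8%) were above 1 FPKM, with a median of 0.496 FPKM, beside 47.7% and 0.823 FPKM over all genes. Profilins bind actin monomers and feed them to growing filaments. PRF1, PRF2 and PRF3, the forms known from vegetative tissue, were above 1 FPKM, led by PRF2 (789 and 796) and PRF1 (413 and 404). PRF4 and PRF5, known from pollen, were under 0.06, with PRF4 listed at 0 in replicate 1. The profilin sum was 8.16-fold and 8.45-fold the actin sum.

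Actin depolymerizing factors (ADFs), which sever filaments and bind monomers, were above 1 FPKM in 7 of 11 cases. ADF4 had 429 and 325 FPKM and ADF2 278 and 229, and ADF10, known from pollen, was listed at 0 in both. Summed, the ADFs stood 6.73-fold and 5.71-fold above the actins. Of the 5 genes for turnover cofactors and capping protein, 4 were above 1 FPKM. Cyclase-associated protein CAP1, which recharges monomers with ATP, had 12.8 and 11.1 FPKM, above ACT3 (9.75 and 9.33) in both replicates. The capping protein subunit CPB had 9.79 and 8.87, and the lowest of the list was the cofactor gene AIP1-1 (0.335 and 0.354).

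Among genes of the ARP2/3 and SCAR/WAVE complexes, villins, fimbrins, formins and myosins, only ARPC5, ARPC4 and BRK1 had a higher mean FPKM than ACT11. Of 9 genes of the ARP2/3 complex, which starts branched filaments, 7 were above 1 FPKM, led by ARPC5 (22.6 and 16.7) and ARPC4 (16.3 and 16.1), with ARPC2B lowest (0.0941 and 0.226). Of 8 genes of the SCAR/WAVE complex, which activates ARP2/3, only BRK1 (53.1 and 39.8) and ABIL1 (2.73 and 2.72) were above 1, and SCAR4 was lowest (0.116 and 0.0973). BRK1, its smallest subunit, was thus within the range of the vegetative actins.

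Villins and fimbrins, which bundle filaments, were above 1 FPKM in 6 of 10 cases, led by FIM1 (3.64 and 3.72) and VLN3 (2.05 and 2.30), with FIM3 listed at 0 in both. Of 18 formins, which start unbranched filaments, only FH9 (1.81 and 1.74) had a mean above 1, FH16 followed (0.876 and 1.04) and FH17 was listed at 0. None of the 17 myosins, the motors that move along actin, reached 1 FPKM (0 of 17). The highest was XI-2 at 0.879 and 0.867, followed by XI-K at 0.629 and 0.580, and XI-E was listed at 0. The summed myosin FPKM was 4.07 and 4.13, below that of ACT11 alone. Of the 7 nuclear and other actin-related proteins, 4 were above 1, led by ARP6 (13.4 and 15.0), a subunit of a chromatin remodelling complex, and ARP7 (2.20 and 2.06), with ARP5 lowest (0.188 and 0.324).

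**Figure D5:**
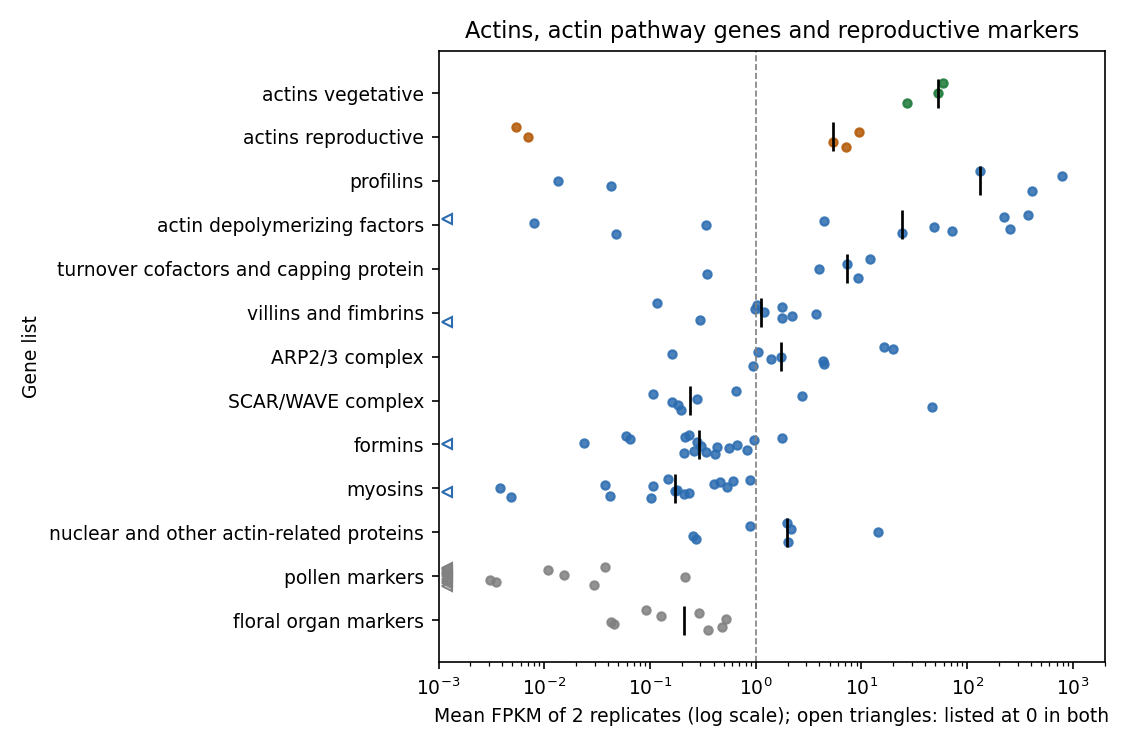
Mean FPKM of 2 replicates (log axis) of each gene in the vegetative actins (green), reproductive actins (orange), 9 lists of actin-binding and actin-related genes (blue) and pollen and floral markers (grey), with black lines at list medians above 0 and open triangles for genes listed at 0 in both. Profilins reach 792 FPKM and ADFs 377, the vegetative actins lie between 26.7 and 58.7, and the 17 myosins, all pollen and all floral markers lie below 1.

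ACT2 is a common choice to scale expression, so 6 other genes used for this were read beside it. UBC9, a ubiquitin-conjugating enzyme gene, was highest at 352 and 283 FPKM, followed by the translation factor gene EF1A4 at 191 and 214, and the phosphatase subunit gene PP2AA3 was lowest at 4.26 and 3.75. The level of ACT2 lay within this range. Genes with levels most like those of the vegetative actins were taken by the distance in log2(FPKM + 1) over the 2 libraries. For ACT2 these were the serine acetyltransferase gene SERAT2;2 (distance 0.02) and VPS46.2 (0.04), for ACT7 they were AT5G44568 (0.01) and CGL160 (0.02), and for ACT8 they were AT1G64650 (0.01) and HRB1 (0.02). With 2 libraries of 1 condition, this likeness is one of level alone.

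The 120 bases before the annotated start were read for the 2 pairs whose proteins differ at 1 residue, ACT2 with ACT8 and ACT4 with ACT12. By mean FPKM, ACT2 and ACT8 came after ACT7, though the order of ACT7 and ACT2 is not firm, and ACT12 and ACT4 were last. The sequences are given on the plus strand from TAIR10.1, with a TATA box match (TATAAA) in capitals, for ACT2 at chr3:6474590-6474709, for ACT8 at chr1:18215680-18215799, for ACT4 at chr5:23949541-23949660 and for ACT12 at chr3:17128091-17128210.
ACT2: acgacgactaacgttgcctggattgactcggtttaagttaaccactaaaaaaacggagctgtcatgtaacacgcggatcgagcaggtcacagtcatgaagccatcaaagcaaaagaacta
ACT8: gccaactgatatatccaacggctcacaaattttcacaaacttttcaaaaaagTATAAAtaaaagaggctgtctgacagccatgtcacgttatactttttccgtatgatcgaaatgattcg
ACT4: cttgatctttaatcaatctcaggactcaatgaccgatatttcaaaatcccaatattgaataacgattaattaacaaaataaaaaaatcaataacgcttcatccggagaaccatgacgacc
ACT12: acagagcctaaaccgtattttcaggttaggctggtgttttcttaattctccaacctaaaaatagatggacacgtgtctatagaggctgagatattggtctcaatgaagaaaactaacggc
Of these 4 genes, only ACT8 has TATAAA in this stretch, at base -68 from its start. In windows of 300 bases, from 250 before to 50 after the start, and on both strands, TATAAA was found in 3 of 8 actins (ACT8, ACT3 and ACT4) and in 52.6% of 26713 promoters. The match of ACT4 was on the minus strand, and ACT3 had matches on both strands. ACT2 and ACT7, the members with the highest levels, had 0 matches, and so had ACT1, ACT11 and ACT12. The letters AGAAA, known from the late pollen gene LAT52 of tomato, were found in 7 of 8 actins, all but ACT4, and in 88.5% of promoters. The letters GTGA, known from a pollen gene of tobacco, were found in all 8 and in 84.4% of promoters. AAACCCTA, a motif of genes for translation, was found in ACT3 alone and in 6.17% of promoters. AGAAA and GTGA can overlap by the shared A, and matches this short are frequent by their length.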

How the data were processed

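Per the labels, the mRNA-seq libraries came from poly(A) RNA of leaves and were sequenced as paired-end reads of 150 bases. The authors used TopHat v2.0.9 for alignment (build TAIR10) and Cufflinks v2.1.1 for expression, and deposited 1 FPKM value per coding gene and replicate. The gene models they used, their strand setting and what became of reads with several matches were not found in the sources. All value columns of the table belonged to the 2 libraries, and 0 others were left out. That the replicates came from separate plants is stated only as biological replicates.

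All 43849 values above 0 (100%, relative tolerance 1e-09) equal a whole number of reads over a whole gene length and over the total of reads the study gives as mapped to 1 place. For high genes this check is weak, as nearly any value passes at this tolerance. All 21309 genes above 0 in both replicates also fit 1 whole length for both. The values alone give a depth of replicate 2 over replicate 1 of 1.13. Read numbers printed are the smallest that fit a length no shorter than the coding sequence; for ACT7 and ACT3 larger multiples are possible. Cufflinks estimates fragment numbers that need not be whole, so these values do not look like its usual output, and how they were made is uncertain. Whether a read is a single read or a pair is not given. All 210 organelle genes of the table are listed at 0, so 0 is reported as listed.

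Mean, SD, sums and shares were computed per library, then over the 2 libraries. Log2 ratios between the replicates had 1 FPKM added to both values as a pseudocount, which makes those of low genes small, and no gene was filtered out. Folds between genes or sums within a library had none. A level of 1 FPKM and a difference of 1.5-fold were the thresholds. Named are all 8 actins, the 2 highest members of each list, the lowest where a list has 5 or more, members listed at 0 by name or number, and the 2 genes nearest to ACT2, ACT7 and ACT8. VGD1, DUO1, AS1, RPP13 and genes given to complete a family were named beyond this after their values were seen. Members and lists (16 lists of 137 genes, from textbook knowledge) were chosen with earlier results of these data known. Sequences, coordinates and overlaps came from the RefSeq genome and annotation of TAIR10.1, which held 26714 of the 27411 IDs and all 137 of the lists. Coding sequences were compared but are not reported here. The recovery of read numbers and the finding of shifted genes by the replicate ratio were tested on simulated data, and the other steps were not. Alternatives were other pseudocounts, thresholds and scalings and each replicate left out. Python 3.11.15, numpy 2.4.6, pandas 2.3.3, scipy 1.17.1, Biopython 1.88 and matplotlib 3.10.9 were used.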

Additional observations from a re-analysis of the deposited data

How the results depend on the processing

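Of 61 alternatives run on 15 results, 58 stayed within the spread of the replicates or within 1.5 times the count. The exceptions were ACT8, which was at 27.1 after scaling all libraries to the same sum (TPM) against 26.7 FPKM as deposited, the number of actins at least 1.5-fold apart, which was 1 (ACT4) with a pseudocount of 0.01 against 0 with 1 or 0.1, and the median log2 ratio of the replicates over the actins, which was 0.040 after centring on genes above 1 FPKM against -0.03 without it. Centring subtracts the median of those genes, -0.07, and scaling to TPM divides by the library's own sum. The 6 actins above 1 FPKM stayed 6 at thresholds of 0.5 and 2, as TPM, and without replicate 1 or 2, while the 34 pathway genes became 45 at 0.5 and 25 at 2. The vegetative share was 86.5% without replicate 1 and 86.1% without replicate 2, each the value of the kept replicate. With 2 replicates, a level, sum or share from 1 of them always lies within the SD of the mean, so leaving out a replicate could not move it. Such runs are among the 58. No paired analysis was possible because the mRNA-seq samples form a single group. With 2 libraries the SD has 1 degree of freedom, and levels of ACT4 and ACT12 rest on 0 to 2 reads.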
